A study of Macaca mulatta with 6 samples.

Results

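Broad stretches of the rhesus macaque genome (Macaca mulatta) in which a digest contrast differed most between parthenogenetic haploid embryonic stem cells (ESC) and sperm are described here. The genome was cut into fixed bins of 100 kb on chromosomes 1 to 20, and 23030 bins held 20 or more CCGG sites listed for both cell types. From these, 500 members were chosen by their measured values: the 250 bins with the highest and the 250 with the lowest mean difference between the cell types, called below the high end and the low end. The other 22530 bins serve as the comparison. The high-end bins held 9884 shared sites and the low-end bins 7779, of 1167122 shared sites in all 23030 bins.

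The haploid ESC carry a single, maternal chromosome set, as parthenogenetic cells do, and were set against sperm of the same species. Each cell type was profiled by HMST-Seq, which sequences tags beside CCGG sites after separate digests of genomic DNA, with 3 digests (HpaII, BGT_MspI and MspI) and 1 library per digest, 6 libraries in all. The age of the animals, the line and the number of animals are not given in the labels. Nothing was replicated, so no difference below was tested against replicate error, and every value describes these 2 tables.

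As background, CCGG is a short palindrome whose inner CpG can carry 5-methylcytosine. HpaII is blocked by methylation of that CpG, MspI cuts it whether or not it is methylated, and a glucosyltransferase step, for which BGT stands in HMST-Seq, makes hydroxymethylated sites resistant to MspI. Mammalian sperm DNA is methylated over most of the genome outside CpG islands, while some cultured cells are known to hold long, gene-poor stretches of intermediate methylation. Differences between germ cells and pluripotent cells can therefore concern single short elements or stretches of many kilobases, and averaging over fixed bins looks at the second kind.

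The deposited tables have no column names. Each holds 3 different signal columns, called here the first, the shared and the third value, and nothing ties any of them to a digest. The contrast d of a site was the first minus the shared value, divided by their sum, so that d above 0 means a larger first value. D is d in haploid ESC minus d in sperm, and its sign holds only if the columns have the same order for both cell types, which no name or header shows. The contrasts of the cell types rose and fell together over 1215827 shared autosomal sites (Spearman's rho = 0.54, a description over sites that share sequence and library preparation). Because the digests are not named, no direction or level of methylation can be read from d or D.

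The high end was reached by bins with a mean D of 0.245 or more, up to 0.466, and the low end by bins with a mean D of -0.284 or less, down to -0.612. These values chose the members and are given as a description. The median mean D was 0.28 at the high end, -0.32 at the low end and 0.01 in the other bins, whose middle 90% lay between -0.18 and 0.17. The limits lay in the tails of the distribution, but no gap in mean D set the members apart. The last bins inside the high end had mean D of 0.2458, 0.2457 and 0.2454, and the first outside had 0.2452, 0.2451 and 0.2450. At the low end the last inside had -0.2849, -0.2846 and -0.2844, and the first outside -0.2843, -0.2843 and -0.2842. Bins on either side of each limit thus differed by far less than the standard error of a bin's mean over its sites, whose median was 0.075 at the high end and 0.096 at the low end.

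The contrasts of both cell types, which the rule used, are given here as a description. In the high-end bins the mean d was 0.081 ± 0.110 in haploid ESC and -0.208 ± 0.106 in sperm (SD over 250 bins). In the low-end bins it was -0.104 ± 0.110 in haploid ESC and 0.236 ± 0.122 in sperm. The median over all bins was close to 0 in both, at -0.006 in haploid ESC and -0.012 in sperm. Relative to these medians, sperm was displaced more than haploid ESC in 169 of the 250 high-end bins and in 186 of the 250 low-end bins. Over all bins d also varied more in sperm, with an SD of 0.121 in haploid ESC and 0.146 in sperm, and a choice by their difference favours the more variable one. Both cell types were displaced, in opposite directions, in 183 high-end and 204 low-end bins.

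**Figure D1:**
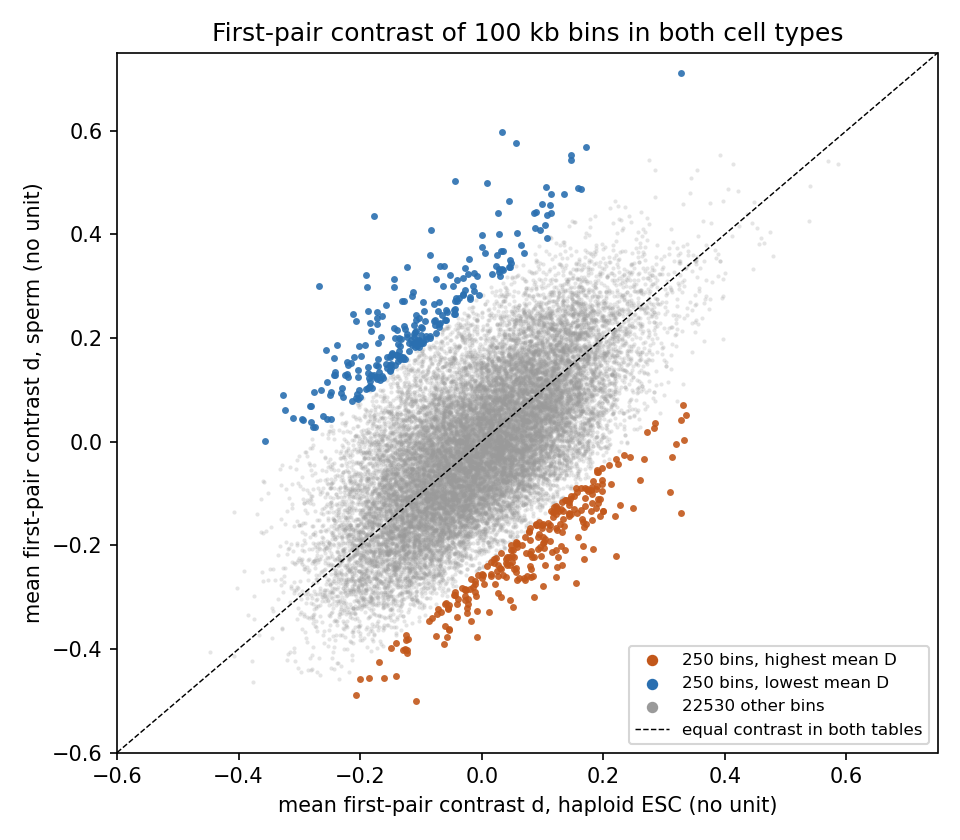
Each point is a 100 kb bin, placed by its mean first-pair contrast d in haploid ESC (horizontal axis) and in sperm (vertical axis), both without unit; the dashed line marks equal contrast. The high-end bins (orange) lie below the line and the low-end bins (blue) above it, by construction, while the 22530 other bins (grey) follow it.

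The signs of d show the same split. At the high end, 184 bins had a mean d above 0 in haploid ESC and below 0 in sperm, 59 were below 0 in both and 7 above 0 in both. Of the low-end bins, 206 were below 0 in haploid ESC and above 0 in sperm, and 44 were above 0 in both. No low-end bin had a mean d below 0 in sperm. Among single sites of the high-end bins, 32.7% had the larger first value only in haploid ESC and 5.17% only in sperm, against 16.3% and 13.1% of the sites in the other bins. Of 7779 low-end sites, 467 had it only in haploid ESC and 2591 (33.3%) only in sperm.

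The bin at the far end of the low side lay on chromosome 5 from 61700001 to 61800000, with positions as the tables give them, on a genome build that the sources used here do not name for these coordinates. All of its 20 shared sites had D below 0, and its mean D was -0.61 ± 0.08 (SE over the 20 sites). Its median first value was 15.1 in haploid ESC and 71.4 in sperm, while the median shared value was 22.4 in both. At the site at 61733899 the first and the shared value were 11.4 and 15.8 in haploid ESC, and 103.7 and 10.2 in sperm. At 61750469 they were 4.98 and 24.7 in haploid ESC, and 78.2 and 25.6 in sperm. The site nearest to no difference, at 61710814, had 17.6 and 39.0 in haploid ESC and 14.4 and 29.9 in sperm. Of the values in the contrast, the medians of this bin thus differed between the cell types in the first and not in the shared one. The remaining signal column, which the rule did not use, also had different medians, at 15.7 in haploid ESC and 28.5 in sperm.

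The bin at the far end of the high side lay on chromosome 7 from 31400001 to 31500000 and was less even. Of its 21 sites, 85.7% had D above 0, and the mean D was 0.47 ± 0.12 (SE over 21 sites). Its median first value was 27.2 in haploid ESC and 12.2 in sperm, and its median shared value 14.4 in haploid ESC and 16.9 in sperm. At 31409664 the first and the shared value were 32.7 and 15.2 in haploid ESC, and 3.08 and 24.9 in sperm. Single sites went the other way: at 31485304 the values were 18.7 and 35.7 in haploid ESC, and 2.59 and 0.680 in sperm, both under the 10th percentile of sperm sites in the other bins (3.10 and 4.97). A mean over 21 sites therefore pools sites of opposite sign.

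**Figure D2:**
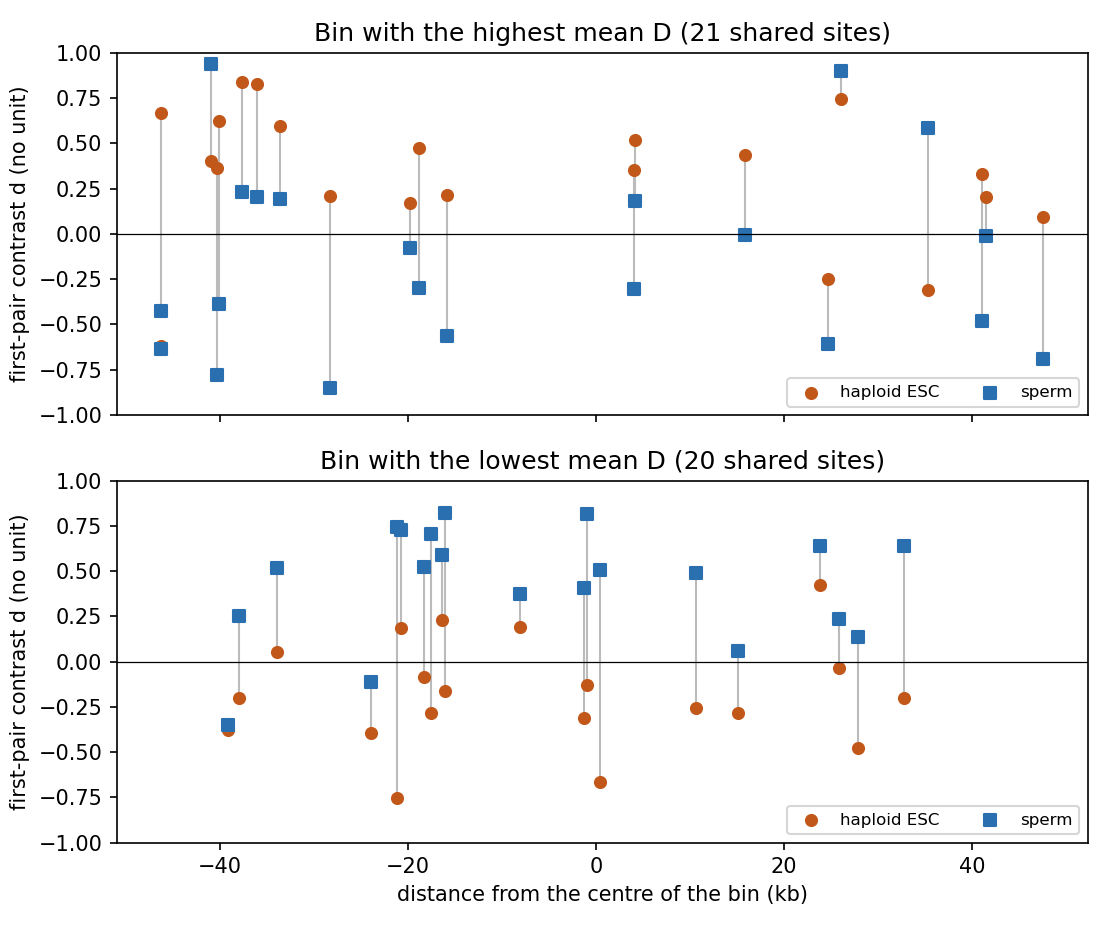
First-pair contrast d (vertical axis, no unit) of each shared site in haploid ESC (orange circles) and sperm (blue squares) against the distance from the bin's centre in kb, for the bin with the highest mean D (21 sites, top) and the one with the lowest (20 sites, bottom). Grey lines join the 2 values of a site; in the bottom panel every sperm value lies above the haploid ESC value, in the top panel the order is reversed at 3 sites.

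The next low-end bins also had a high first value in sperm. On chromosome 5 from 39000001 to 39100000, the mean D over 26 sites was -0.57 ± 0.10 (SE), with a median first value of 9.95 in haploid ESC and 74.1 in sperm. On chromosome 1 from 141900001 to 142000000, the mean D over 48 sites was -0.56 ± 0.06 (SE), with a median first value of 23.3 in haploid ESC and 91.0 in sperm. On chromosome 6 from 138700001 to 138800000, the mean D over 64 sites was -0.55 ± 0.05 (SE), with a median first value of 21.5 in haploid ESC and 102.9 in sperm. These 3 bins differed in haploid ESC: d was -0.27 on chromosome 5, but 0.03 on chromosome 1 and -0.04 on chromosome 6, close to the median of all bins. The other 6 of the 10 bins with the lowest mean D began at 44400001 on chromosome 8, at 50800001 on chromosome 12, at 147000001 on chromosome 7, at 34500001 on chromosome 3, at 74200001 on chromosome 20 and at 500001 on chromosome 9. All 10 had a median first value in sperm above 15.7, the median of all bins, and it ran from 26.1 to 102.9.

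The 10 bins with the highest mean D had more modest signals. Their median first value ran from 20.8 to 40.9 in haploid ESC and from 9.18 to 15.9 in sperm, and it was larger in haploid ESC in all 10. On chromosome 3 from 2000001 to 2100000, with 87 sites the best covered of the 10, the mean D was 0.41 ± 0.05 (SE). Its median first value was 40.9 in haploid ESC and 15.9 in sperm, its median shared value 18.2 in both. On chromosome 6 from 93400001 to 93500000 the sperm contrast lay far from 0: d was -0.11 in haploid ESC and -0.50 in sperm, the lowest sperm contrast of any bin, and the median shared value was 21.4 in haploid ESC and 33.9 in sperm. Chromosome 10 held 3 of the 10, from 9500001 to 9600000, from 57200001 to 57300000 and from 53700001 to 53800000, with mean D of 0.44, 0.39 and 0.38. The remaining 4 began at 107300001 on chromosome 5, at 80700001 on chromosome 11, at 20000001 on chromosome 13 and at 110500001 on chromosome 1.

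Over all members, the signals behind the contrast differed between the ends. At the low end the median of the bins' first value was 15.4 in haploid ESC and 35.2 in sperm, against 18.6 and 15.6 in the other bins. The sperm value lay above the median of all bins in 246 of the 250. At the high end it was 24.1 in haploid ESC and 13.1 in sperm; the haploid ESC value lay above the median of all bins in 213 bins and the sperm value in 52. The shared value of the high-end bins was 19.8 in haploid ESC and 21.4 in sperm, against 19.0 and 17.8 in the other bins, so in sperm the high-end bins had a lower first and a higher shared value than the other bins. Low-end bins had a shared value of 19.1 in haploid ESC and 20.3 in sperm. In sperm the low-end excess of the first value was wide: over single sites its median was 42.1 and its upper quartile 106.8, against 16.3 and 32.9 in the other bins.

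The third value took no part in choosing the members. In the high-end bins its median was 19.7 in haploid ESC and 20.9 in sperm, in the low-end bins 19.0 in haploid ESC and 19.8 in sperm, and in the other bins 19.1 and 17.6. It lay above the median of all bins in 148 high-end and 123 low-end bins in haploid ESC, and in 198 high-end and 162 low-end bins in sperm. Both ends thus carried more third-value signal in sperm than the other bins, as they did of the shared value. Over shared sites the third value ranked with the shared one (Spearman's rho = 0.88 in haploid ESC and 0.93 in sperm), so it is not a separate view of a site's signal. A contrast of the first with the third value shares the first value with the rule. Its difference, haploid ESC minus sperm, was above 0 in all 250 high-end bins and below 0 in all 250 low-end bins, with medians of 0.27 and -0.32.

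**Figure D3:**
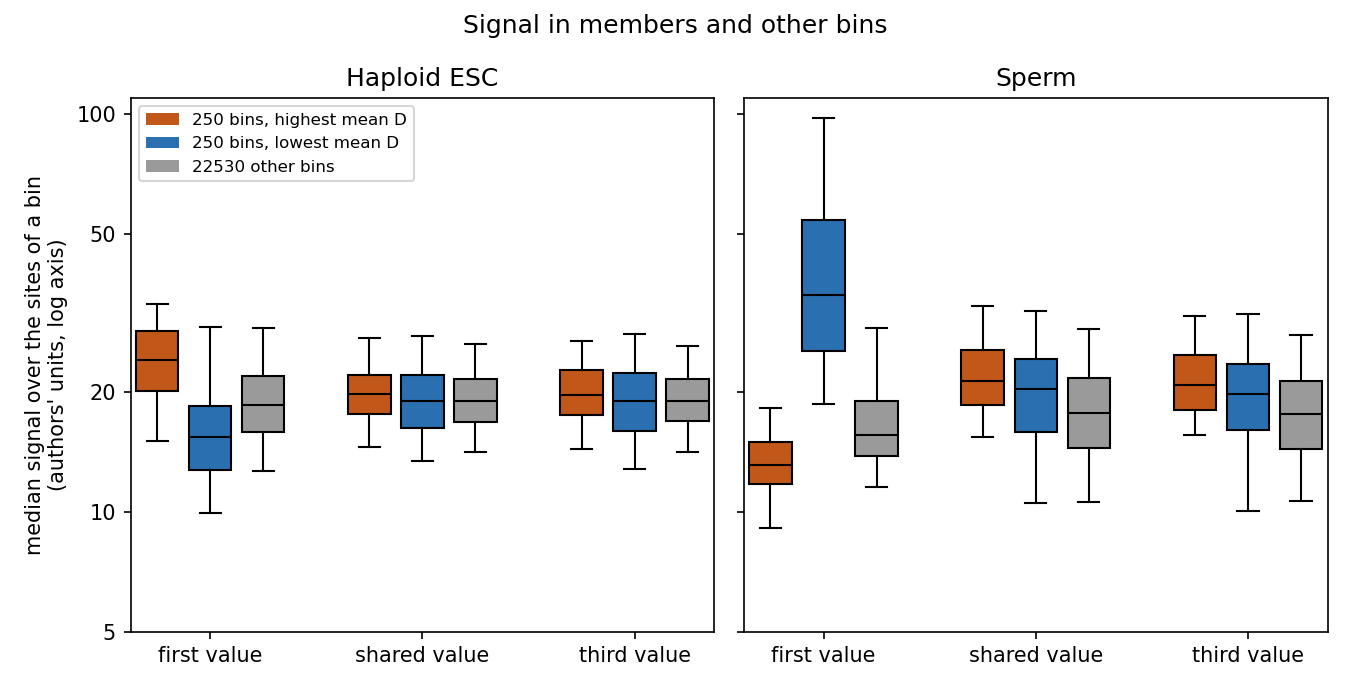
Median signal of a bin's sites (authors' units, log axis) for the first, the shared and the third value in haploid ESC (left) and sperm (right), for high-end bins (orange), low-end bins (blue) and the other bins (grey). Boxes are quartiles over bins and whiskers the 5th and 95th percentiles; the low-end bins stand apart in the first value of sperm, with a median of 35.2 against 15.6 in the other bins.

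Members held fewer sites than other bins. The median number of shared sites was 30 at the high end and 26 at the low end, against 41 in the other bins. Of the bins with 20 to 29 sites, 1.83% were high-end and 2.63% low-end members. Of those with 50 to 99 sites, 0.543% and 0.338% were. The mean of few sites varies more, and the SD of the mean D over bins was 0.13 with 20 to 29 sites and 0.089 with 100 or more, beside a median standard error of 0.092 and 0.036. In bins with many sites the spread between bins was thus more than what their sites' scatter gives if sites are taken as independent. The well covered members were few: 13 high-end bins and 1 low-end bin held 100 or more sites. The exact bins also depend on where bins begin. With bins shifted by 50 kb, 127 of the 250 high-end and 115 of the 250 low-end bins overlapped a member of that end by 50 kb or more.

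Within members, sites and pieces of both signs were counted, from the same values that chose the bins. With the bin cut into 2 pieces of 50 kb with at least 5 sites in each, both pieces had the sign of the whole in 242 of 242 high-end bins and in 235 of 242 low-end bins. In pieces of 20 kb with at least 3 sites, 95.8% of 1116 pieces at the high end and 92.7% of 1068 at the low end had that sign. The choice of bins by their mean favours such a majority, so nothing is read from these counts. The share of sites with D above 0 had a median of 75.7% over the high-end bins and 27.0% over the low-end bins, against 52.4% in the other bins, so a minority of a member's sites went against it.

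The spacing of sites went with D at the low end. Sites with a neighbour within 200 bp had a mean D of -0.53 in the low-end bins, and isolated sites, without one within 1000 bp, had -0.19, with -0.39 at the sites between. In sperm the close sites had a mean d of 0.42 and the isolated ones 0.05, while in haploid ESC they had -0.11 and -0.14. The high end showed no such gradient: its mean D was 0.35 at close sites, 0.25 at the sites between, which were 43.6% of its sites, and 0.29 at isolated sites. There, close sites had a mean d of 0.19 in haploid ESC and -0.16 in sperm, and isolated sites had -0.29 in sperm. In the other bins close and isolated sites had a mean D of 0.03 and 0.04. Their mean d was 0.07 and -0.09 in haploid ESC, and 0.03 and -0.13 in sperm, so isolated sites had the lower d there too. Against these values, low-end d in haploid ESC lay further below at close than at isolated sites, and in sperm further above. These means come from the values that chose the bins. Close sites made up 20.9% of the shared sites at the high end and 20.7% at the low end, against 23.1% in the other bins.

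Neighbouring bins leaned the same way as the members. Of the bins that touched a high-end bin and were no members, 275 of 349 (78.8%) had a mean D above the median of all bins, and their median was 0.10. Beside low-end bins, 236 of 298 (79.2%) lay below that median, and theirs was -0.09. The lean faded with distance and did so more slowly and less steadily at the low end. At 1000 kb the medians were 0.03 and -0.05, with 59.4% and 67.4% of bins on the member's side, and at 2000 kb they were 0.02 and -0.03. These bins share no site with the members, but they share chromosome, libraries and sequence surroundings. A bin counted at a given distance from a member can lie nearer to another member. Chromosomes also differ in their own median, -0.03 on chromosome 5 with its 43 low-end bins, and its part in the lean was not tested. Over all bins, the mean D of touching bins correlated with r = 0.37 (20973 pairs, a description) and that of bins 1000 kb apart with r = 0.14.

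**Figure D4:**
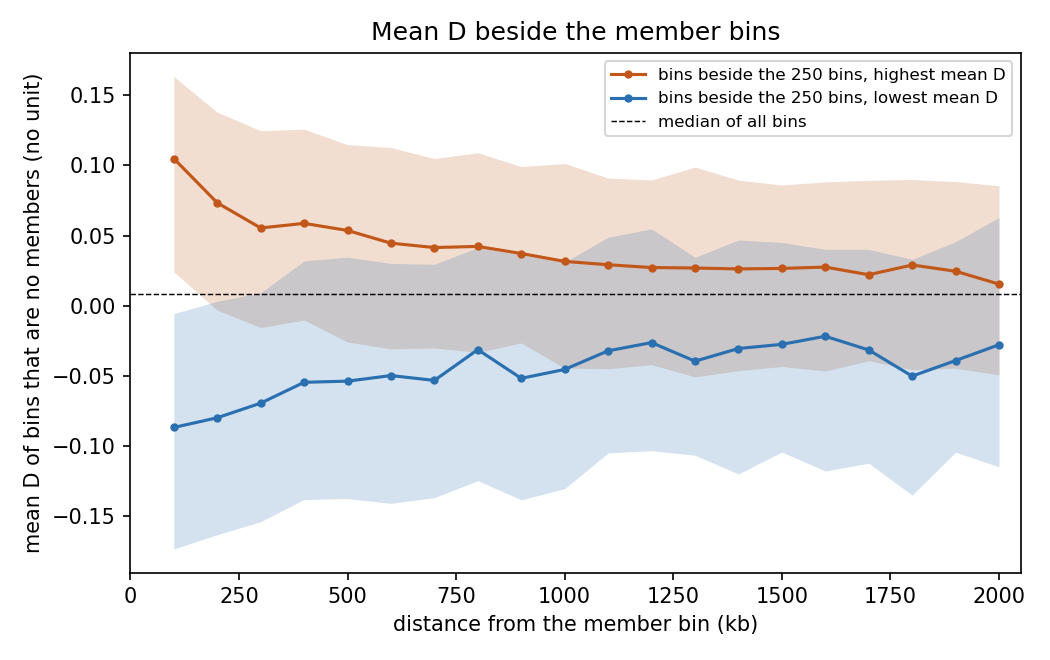
Median (line) and quartiles (shading) of the mean D of bins that are no members (vertical axis, no unit) against their distance from a member bin in kb, beside high-end bins (orange) and low-end bins (blue), with the median of all bins dashed. At 100 kb the medians are 0.10 and -0.09, and both lie nearer the dashed line at 2000 kb. The low-end line does not approach it steadily, with -0.03 at 800 kb and -0.05 at 1800 kb.

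Members also touched each other. At the high end, 60 of the 250 stood next to another high-end bin, in 24 stretches of up to 4 bins. Among low-end bins 34 did, in 15 stretches of up to 4. Of the 3 high-end stretches of 4 bins, the one with the most sites ran on chromosome 10 from 53600001 to 54000000. Its 200 sites had a mean D of 0.31, with a mean d of 0.06 in haploid ESC and -0.25 in sperm, and 81.5% of them had D above 0. The longest low-end stretch ran on chromosome 6 from 139000001 to 139400000. Its 265 sites had a mean D of -0.33, with a mean d of 0.13 in haploid ESC and 0.46 in sperm, and 22.3% had D above 0. In this stretch both cell types had the larger first value, by more in sperm.

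Joined across gaps of at most 500 kb, members formed larger groups, which were singled out after their values were seen. At the high end 81 members lay in 15 groups of 3 or more, and at the low end 39 in 11. The group with the most members lay on chromosome 8 from 140000001 to 142200000, where 13 of 20 bins were high-end members and all 20 had a mean D above 0. Over these 20 bins the median d was 0.08 in haploid ESC and -0.17 in sperm. On chromosome 9 from 48900001 to 50500000, 10 of 15 bins were high-end members and again all had a mean D above 0. On chromosome 13 from 106200001 to 107600000, 7 of 14 were, and 13 of the 14 had a mean D above 0. The low end had no group above 5 members, and 3 groups of 5. On chromosome 6 from 138700001 to 139400000, 5 of 7 bins were low-end members and 1 bin had a mean D above 0, at 0.07. On chromosome 17 from 34700001 to 36500000, 5 of 11 bins were low-end members and none had a mean D above 0. On chromosome 19 from 22500001 to 23600000 the same held for 5 of 11, with a median d of 0.11 in haploid ESC and 0.27 in sperm.

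The ends favoured different chromosomes. Each end took 1.09% of all bins. Members of a group count singly in these shares, as do the 10 of the high-end group on chromosome 9 from 48900001. High-end bins made up 3.19% of the bins of chromosome 10 (29 of 908) and 2.34% of chromosome 9 (27 of 1153), but 0.192% of chromosome 19 (1 of 520). Low-end bins made up 2.95% of chromosome 5 (43 of 1459), 2.75% of chromosome 17 (21 of 765) and 2.12% of chromosome 19 (11 of 520), but 0.202% of chromosome 7 (3 of 1485). The median mean D over all bins of a chromosome was 0.04 on chromosome 10, 0.02 on chromosome 9, -0.03 on chromosome 5, -0.01 on chromosome 17 and -0.06 on chromosome 19. The site counts also differ, with a median of 65 shared sites per bin on chromosome 10, 30 on chromosome 5 and 89.5 on chromosome 19, and their part in the shares of members was not tested.

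**Figure D5:**
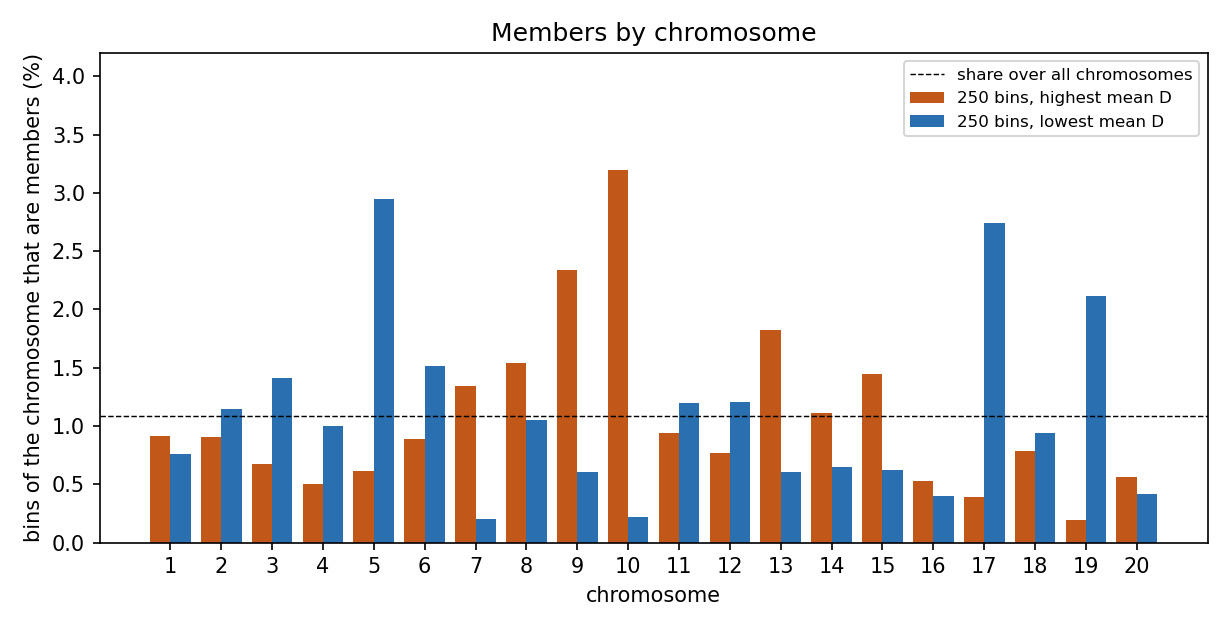
Share of each chromosome's bins (vertical axis, percent) that were high-end (orange) or low-end (blue) members, with the share of 1.09% over all chromosomes dashed. Chromosomes 10 and 9 lead for the high end, and 5, 17 and 19 for the low end.

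The position of members along chromosomes depended on the distance looked at. Within 10 Mb of the first or last listed site lay 24.4% of the high-end and 9.60% of the low-end bins, against 16.6% of the other bins. Within 5 Mb the shares were 8.80% at the high end and 15 of 250 at the low end, against 8.34% of the other bins. Within 2 Mb the high-end share was 2.40%, below the 3.26% of the other bins, and 10 of the 250 low-end bins lay there. A pair of low-end bins on chromosome 9 from 500001 to 700000 stood out by its signal, as seen after the values were known. From 600001 to 700000 the median shared value was 79.0 in haploid ESC and 93.2 in sperm, the highest of any bin in haploid ESC. The highest shared value of sperm, 137.7, was also in a low-end bin, on chromosome 3 from 33000001 to 33100000, where that of haploid ESC was 55.5.

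The authors' deposited tables also give, for each pair of values, an adjusted p-value, and a site below 0.05 is termed called. The first pair is the contrast that chose the members, so nothing is read from its calls. For haploid ESC, the authors' deposited table had 69.8% of high-end and 65.1% of low-end sites called, with a background of 67.6% over all bins. For sperm, the authors' deposited table had 70.6% and 82.2%, with a background of 69.7%.

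Calls of the second pair, the shared against the third value, use the shared value with the rule but not the first value. They were more frequent at both ends in sperm. For sperm, the authors' deposited table gave calls at 915 of 9884 sites at the high end (9.26%, 95% Wilson interval 8.70% to 9.84%) and 829 of 7779 at the low end (10.7%, 9.99% to 11.4%), with a background of 7.85%. The authors' deposited table of haploid ESC called 11.8% (11.2% to 12.5%) and 11.1% (10.4% to 11.8%), with a background of 11.5%, which both intervals hold. Other settings moved the haploid ESC shares off the background: with bins of at least 40 sites they were 1.17 times that of all bins at the high end (1.13 to 1.21) and 0.852 times at the low end (0.811 to 0.895). By summed values they were 1.17 and 0.819 times, with bins of 200 kb 1.10 and 0.898 times, and ranked over the standard error 1.32 and 0.911 times. With the second-pair score limit at 0.001, sperm calls in the authors' deposited table made up 1.82% at the high end and 2.60% at the low end. In the other bins they made up 1.56%. Signal in sperm moved with this result, since the shared and the third value were higher at both ends than in the other bins, and its part in the calls was not tested. These intervals allow for counting error alone, and sites close together are not independent. With bins of at least 40 sites the low-end share in sperm was 0.926 times that of all bins, and with bins ranked by the mean D over its standard error 0.932 times, below it in both instead of above.

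Sites listed for one cell type alone took no part in the rule. Of the sites listed for haploid ESC, 7.95% at the high end (95% Wilson interval 7.46% to 8.48%) and 6.27% at the low end (5.76% to 6.81%) were missing from sperm, against 7.72% in the other bins. Of the sites listed for sperm, 2.66% at the high end (2.36% to 2.99%) and 3.77% at the low end (3.38% to 4.21%) were missing from haploid ESC, against 3.06%. The low-end bins thus lacked fewer of their haploid ESC sites in sperm and more of their sperm sites in haploid ESC than the other bins did. At the high end the share missing in haploid ESC was below that of the other bins, and the share missing in sperm was within its counting interval of theirs. With bins of at least 40 sites, the low-end share missing in sperm was 1.10 times that of all bins instead of 0.813 times, and with bins of 50 kb the high-end share missing in haploid ESC was 1.08 times instead of 0.870 times. The counting interval of the latter ratio also held 1 with a minimum of 10 sites, by the median of D and with 1 site per 200 bp group. It held 1 too with the third value or with sites whose first and shared values summed to 10 or more. It stayed below 1 with at least 40 sites, shifted bins, bins of 200 kb, summed values and over the standard error.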

How the data were processed

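Each cell type has 1 table without header, deposited by the authors and tied by the labels to 3 libraries. Per the labels, the libraries were HMST-Seq digests read as single ends. Signal values in the deposited tables are not whole numbers and come in no equal steps, so depth per library could not be recovered and is unknown; the sources used here do not give how the authors normalised them, their aligner or their test. A signal column of each cell type, 2 in all, was not used because it repeats another in all 1366982 rows of haploid ESC and all 1297392 of sperm. The p-values are the authors' own, as deposited, and were recognised from their values, since no column is named. For the second pair, its adjusted value counts as a score, since the deposited column exceeds 1. The submitters' processing notes name hg19, which the macaque chromosome names do not match, so no gene was assigned and no sequence read.

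Tables were joined on chromosome and position. Members were the 250 bins at each end of the mean D over bins of 100 kb with 20 or more shared sites. Bins named are the 10 most extreme at each end, the longest stretches, those at the limits and the chromosomes with the highest and lowest shares; others were picked after their values were seen. Members and lists were chosen with earlier results of these data known. No test between cell types was made, because nothing was replicated; shares carry 95% Wilson intervals for counting error only. Alternatives that rank by the mean D over its standard error or set the first against the third value were added after seeing the data. The bin search was tested on simulated data, with planted shifts beyond the limits of both ends and sites independent of each other. This checks the search and not the members. Python 3.11.15, pandas 2.3.3, numpy 2.4.6 and scipy 1.17.1 were used.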

Additional observations from a re-analysis of the deposited data

Results flagged for a closer look

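At both ends the mean contrast had opposite signs in the cell types: 0.081 in haploid ESC and -0.208 in sperm at the high end, and -0.104 in haploid ESC and 0.236 in sperm at the low end. The bins were chosen for that difference, and it was not tested.

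Chromosome X lay outside the rule. Of its 991 bins with 20 or more shared sites, 192 (19.4%) had a mean D at or below the limit of the low end and none reached that of the high end; the highest X bin had 0.21. The median mean D of X bins was -0.17, with a median d of -0.03 in haploid ESC and 0.15 in sperm. Median signals of X bins were 19.7 for the first and 20.99 for the shared value in haploid ESC, and 12.1 and 9.93 in sperm, so both sperm values were below those of the autosomal bins (15.7 and 17.8) while those of haploid ESC were not. Sperm carry X or Y, and the part of lower X signal in the contrast was not tested.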

How the results depend on the processing

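Nothing was replicated, so no library could be left out. No paired analysis of replicates was possible because each digest had 1 library per cell type. Depth is unknown, so its limits are too. The cause of the changes below was not tested, except that a minimum of 40 sites keeps only members with that many. Each alternative chose 250 bins at the high and low end, and those overlapping a member of that end by 50 kb or more were counted. They numbered 155 and 160 with a minimum of 10 sites, 74 and 37 with 40, and 127 and 115 with bins shifted by 50 kb. With bins of 50 kb there were 115 and 116, with 200 kb 133 and 127, and by the median of D 143 and 155. By summed values there were 97 and 112, and by the mean over its standard error 61 and 86. With shifted bins or other bin lengths these are not numbers of members found again. Members touching another numbered 17 (50 kb) and 19 (summed values) at the high end instead of 60, and 16 (summed values) and 60 (over standard error) at the low end instead of 34.

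Second-pair calls, from the authors' deposited tables, are given as ratios to all bins. The adjusted p named here is the score of the second pair. For haploid ESC at the high end the ratio was 1.02, but 1.17 with 40 sites, 1.10 with 200 kb, 1.17 by summed values, 1.13 at adjusted p below 0.001, 1.32 over standard error and 0.965 with the third value. For haploid ESC at the low end it was 0.965, but 0.852, 0.898, 0.819 and 1.03 under the first 4 of these. At adjusted p below 0.001 the haploid ESC intervals were 0.969 to 1.32 (high end) and 0.862 to 1.24 (low end). Both held 1 and the main ratio of their end, so no change is read from these values. For sperm at the high end it was 1.18, but 1.28 with 10 sites and 1.26 over standard error. For sperm at the low end it was 1.36, but 0.926 with 40 sites, 1.25 with 50 kb, 1.14 with 200 kb, 1.03 by summed values, 1.21 with 1 site per 200 bp group, 1.65 at adjusted p below 0.001 and 0.932 over standard error.

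Sites missing from sperm at the high end had a ratio of 1.03, but 0.933 with 40 sites, 0.963 with shifted bins, 1.12 with 50 kb, 0.947 with 200 kb and 0.766 over standard error. At the low end it was 0.813, but 1.10 with 40 sites, 0.932 with 200 kb, 0.916 by summed values, 0.926 with 1 site per 200 bp group and 1.03 over standard error. Sites missing from haploid ESC at the high end had 0.870, but 1.08 with 50 kb. At the low end their ratio stayed between 1.16 and 1.35 under all alternatives run. The other 102 values moved by less than their counting interval or, for counts, by less than 1.5 times. Among them are those with each cell type's median contrast subtracted. That step leaves the ranking of bins unchanged, so these values could not move.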
